A study of Mus musculus with 4 samples.

Results

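The genes described here encode 9 enzymes and enzyme subunits that carry out steps of the tricarboxylic acid (TCA) cycle or the matching cytosolic reaction: *Cs*, *Idh1*, *Idh2*, *Idh3a*, *Ogdh*, *Sucla2*, *Suclg1*, *Fh1* and *Mdh2*. They were chosen by name, and all 9 were found among the 17104 genes of the deposited expression table. Their RNA was measured in bone marrow leukemic stem cells (LSCs, sorted as YFP+, c-kit+ cells) from a mouse model of acute myeloid leukemia (AML). Lin- bone marrow cells of CD37 fl/fl, Rosa26-CreERT2 mice were transduced with the MLL-AF9 fusion oncogene and YFP, and transplanted into irradiated C57 recipients. The CD37 -/- group received tamoxifen, which lets the Cre recombinase remove exons of *Cd37* in all cells that carry it, and the CD37 fl/fl group received corn oil, so that loss of CD37 and exposure to tamoxifen cannot be told apart here. Both groups carry MLL-AF9, the floxed allele and Cre, both came from male C57 mice, and both were collected at week 6 of the secondary transplantation, with 2 libraries each. The design text calls the replicates independent without saying whether each came from its own mouse, so that p-values measure the spread between libraries only.

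The TCA cycle takes acetyl-CoA from pyruvate, fatty acids and amino acids, oxidizes it to carbon dioxide and passes the electrons on to the respiratory chain as NADH and succinate. Its intermediates also leave the cycle, as citrate for lipid synthesis, as 2-oxoglutarate for the enzymes that demethylate DNA and histones, and as oxaloacetate and malate for amino acids and glucose. In AML the cycle is best known for mutations of *IDH1* and *IDH2*, which make the enzymes produce 2-hydroxyglutarate, and for the reliance of leukemic stem cells on mitochondrial respiration. All values here are RNA levels, which measure neither enzyme activity nor the flow through the cycle.

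The promoters of the enzymes were read for short motifs, some of them known from genes of mitochondrial proteins. RefSeq promoter entries on GRCm38.p6 were found for 8 of the 9 genes, with 14 start sites, and *Idh3a* had none in the table used. In the 250 bases before each start, 8 motifs were searched on both strands, and the rarest of those found are shown with up to 30 bases of context, since *Mdh2*, *Ogdh* and *Sucla2* alone among the 8 genes held them. Capitals mark the motif, and all 5 sequences with a CGCG element or a cyclic AMP response element (CRE), and the 1 with an element of the factor NRF1, are on the plus strand.
*Mdh2*, CGCG element, chr5:135778449-135778478: gccgggcctcTCTCGCGAGAtctcggaagt
*Mdh2*, CGCG element, chr5:135778576-135778605: gccgagcctgTCTCGCGAGAtttggctcaa
*Mdh2*, CGCG element, chr5:135778610-135778639: cttgcgcttcTCTCGCGAGAtcaggtggct
*Mdh2*, CRE, chr5:135778511-135778540: ggagagaatcgTGACGTCAggcctcgctcg
*Ogdh*, CRE, chr11:6291535-6291564: acccaattctgTGACGTCAcgtcacgccca
*Sucla2*, NRF1 element, chr14:73552759-73552785: ctgcgtctctGCGCCTGCGCggtgccc

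The CGCG element, a palindrome shown above, began 190, 63 and 29 bases before the *Mdh2* start. At least 1 copy stood in 0.39% of the 32851 promoters searched, and 3 or more copies in 2 promoters of these, *Mdh2* included. The CRE (TGACGTCA) was found in *Mdh2* and *Ogdh* and in 1.55% of all promoters. The NRF1 element was found in *Sucla2* and in 3.74% of all promoters. An E-box (CACGTG, 6.02% of all promoters) stood before 3 of the 6 *Ogdh* starts, and a GC box (GGGCGG, 32.7%) before at least 1 start of 7 of the 8 genes, the exception being *Suclg1*. All these percentages count single promoter windows, so they are not shares of genes, which can hold a motif before any of their starts. The motifs CCGGAAGT of ETS factors (2.88% of all promoters), TCAAGGTCA of estrogen-related receptors (0.387%) and AANATGGC of YY1 (3.91%) were in none of the 14 windows. These matches describe letters in the windows and no factor was measured at them. In the GENCODE annotation, the gene *Mdh2* begins upstream of the RefSeq start, so that its CRE and the CGCG elements 63 and 29 bases before that start lie inside the annotated gene. The NRF1 element of *Sucla2* also lies inside its GENCODE gene, which begins at position 73525319, far upstream of the RefSeq start used.

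Expression was deposited as FPKM, the fragments of a gene per kilobase of gene, scaled by sequencing depth. In these files the kilobases are those of the whole genomic span, introns included, so that FPKM were compared between libraries for 1 gene at a time, and levels of different genes were compared only as depth-scaled reads per kilobase of exon (exon level). The reads behind the deposited values summed to between 15139063 and 22562837 per library, and the 9 genes held between 27094 and 39346 of them, or 0.174% to 0.218%. Each of the 9 had at least 690 reads in each library. *Cd37* had an FPKM of 56.6 and 46.8 in CD37 fl/fl and of 23.2 and 22.9 in CD37 -/- LSCs (log2 fold change -1.12, adjusted p = 0.104, limma). Of the markers of cell types, those of the leukemia were read in all libraries, with *Elane* at an FPKM between 1750 and 1884 and *Hoxa9* between 38.8 and 47.2, while *Kit*, the gene of the sorted c-kit protein, had between 213 and 804 reads and *Cd34* between 5 and 16.

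Levels per exon length set *Mdh2*, the mitochondrial malate dehydrogenase that regenerates oxaloacetate, above all other members. Its exon level was 197 and 232 in CD37 fl/fl LSCs and came to 172 and 133 in CD37 -/- LSCs, which was 41.4%, 40.0%, 36.8% and 30.7% of the sum over the 9 genes. *Idh2*, the mitochondrial NADP-dependent isocitrate dehydrogenase, came next with exon levels between 56.7 and 105. *Cs*, citrate synthase, which joins acetyl-CoA to oxaloacetate, followed in all 4 libraries, between 42.0 and 51.7. These 3 genes kept their order in every library, and their ranges over the libraries did not overlap. Below them, *Suclg1* (29.6 to 41.8), *Idh1* (29.5 to 38.1), *Ogdh* (25.6 to 49.2) and *Fh1* (29.4 to 41.1) overlapped with each other and exchanged places between libraries. *Sucla2* (19.6 to 22.7) and *Idh3a* (8.99 to 27.5) were the lowest. *Idh3a* had the lowest exon level of the 9 in both CD37 fl/fl libraries and rank 8 in both CD37 -/- libraries, where *Sucla2* was the lowest. *Ogdh* had rank 7 in both CD37 fl/fl libraries, and ranks 6 and 4 in CD37 -/-.

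**Figure D1:**
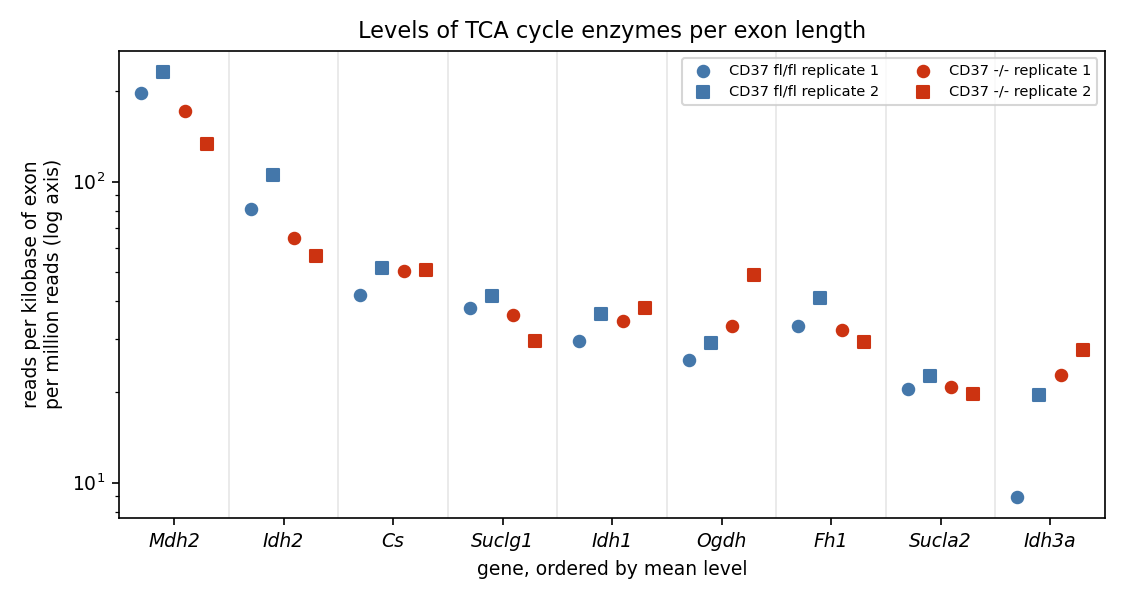
Exon level (reads per kilobase of exon, scaled by depth, log axis) of the 9 TCA cycle enzymes, ordered by their mean over the 4 libraries, with 1 point per library (blue, CD37 fl/fl, red, CD37 -/-; circles, replicate 1, squares, replicate 2). *Mdh2* lies between 133 and 232 in every library, and *Idh3a* has the lowest single value, 8.99 in CD37 fl/fl replicate 1.

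The main comparison asked whether these genes differ with loss of CD37 in LSCs. None of the 9 had an adjusted p under 0.05 (limma on log2(FPKM + 1), Benjamini-Hochberg adjustment over the 6761 genes whose FPKM averaged 1 or more), and none had an unadjusted p under 0.05. All 9 genes passed this filter on low values. Over all genes tested, 0.0% were called at the adjusted threshold, with a smallest adjusted p of 0.0502, and 24.0% had an unadjusted p under 0.05 (16.1% higher and 7.96% lower in CD37 -/-). The smallest adjusted p among the 9 was 0.214, for *Idh2*. The members shared no direction. Of the 9, 4 had a log2 fold change above 0 and 5 below it, with a median of -0.05, while 58.8% of all genes were above 0, with a median of 0.11. Both CD37 -/- libraries lay above both CD37 fl/fl libraries for *Idh3a* and *Ogdh*, and below them for *Idh2*, *Suclg1*, *Fh1* and *Mdh2*. That is 6 of 9 genes without overlap, where 61.9% of all genes tested had none (38.2% higher and 23.7% lower in CD37 -/-), so that the share among the enzymes was close to the background.

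**Figure D2:**
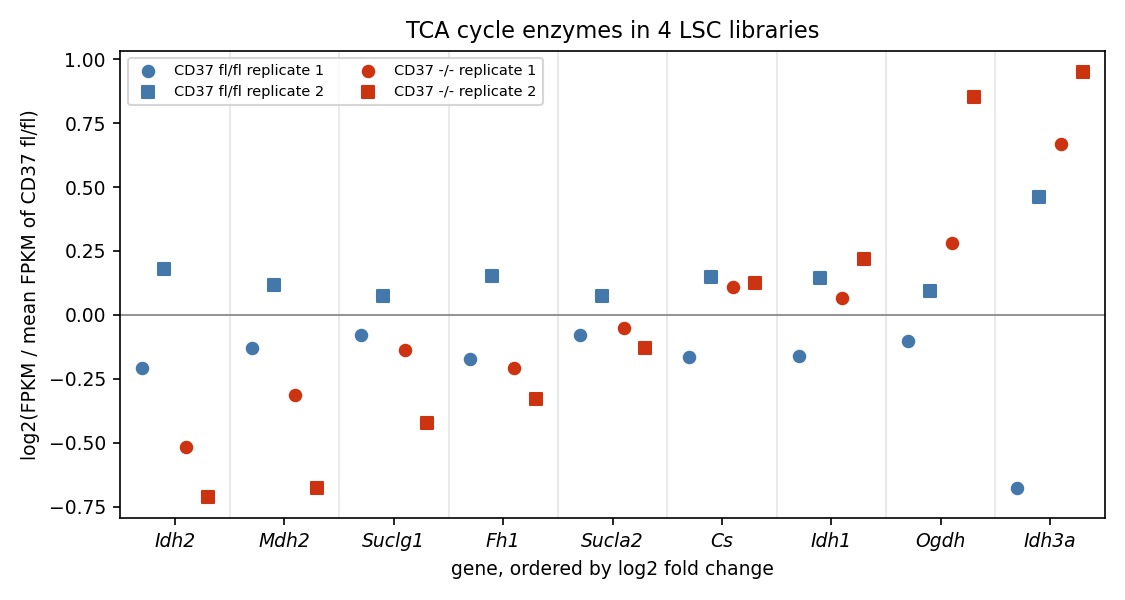
FPKM of each enzyme in each library, as log2 of its ratio to the mean of CD37 fl/fl, ordered by log2 fold change (blue, CD37 fl/fl, red, CD37 -/-; circles, replicate 1, squares, replicate 2; 0 is the CD37 fl/fl mean). Both red points lie below both blue points for *Idh2*, *Mdh2*, *Suclg1* and *Fh1* and above them for *Ogdh* and *Idh3a*, and the blue points of *Idh3a* are the farthest apart.

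The first step of the cycle, the making of citrate, was read from *Cs* (ENSMUSG00000005683, chr10:128337734-128362479, plus strand, GRCm38). *Cs* had an FPKM of 9.68 and 12.0 in CD37 fl/fl LSCs (10.9 ± 1.65, SD, n = 2) and of 11.7 and 11.8 in CD37 -/- LSCs (11.8 ± 0.0960, SD, n = 2). The CD37 -/- values lay between the CD37 fl/fl values. The log2 fold change was 0.11 with a 95% interval from -0.42 to 0.65 (adjusted p = 0.763, limma). *Cs* shared 5.5% of its stretches of 31 bases with other genes, mostly with the near copy *Csl* (4.3%), which was the largest share among the 9.

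The oxidation of isocitrate to 2-oxoglutarate is made by 3 kinds of enzyme, and their genes had log2 fold changes of both signs. *Idh2* (ENSMUSG00000030541, chr7:80094846-80115392, minus strand) was read at an FPKM of 10.1 and 13.2 in CD37 fl/fl (11.7 ± 2.21, SD, n = 2) and of 8.15 and 7.13 in CD37 -/- (7.64 ± 0.727, SD, n = 2). Both CD37 -/- libraries were lower, and their mean was 65.5% of the CD37 fl/fl mean. The log2 fold change of *Idh2* was -0.54 (standard error 0.23, 95% interval -1.10 to 0.02, adjusted p = 0.214, limma). *Idh2* was lower in CD37 -/- under each of 16 alternative settings, with log2 fold changes between -0.96 and -0.21 and adjusted p-values between 0.110 and 0.650.

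*Idh3a*, the catalytic subunit of the NAD-dependent isocitrate dehydrogenase that acts in the cycle itself, was higher in both CD37 -/- libraries. The gene (ENSMUSG00000032279, chr9:54586334-54604661, plus strand) was read at an FPKM of 2.46 and 5.40 in CD37 fl/fl (3.93 ± 2.08, SD, n = 2) and of 6.25 and 7.59 in CD37 -/- (6.92 ± 0.948, SD, n = 2), from 690, 1716, 2032 and 3148 reads. The gap between the CD37 fl/fl libraries was wider than that from the higher of them to the lower CD37 -/- library. For *Idh3a*, limma gave a log2 fold change of 0.75 (standard error 0.32, 95% interval -0.06 to 1.55, adjusted p = 0.223). It was 0.30 without CD37 fl/fl replicate 1, where *Idh3a* was lowest, and 1.19 without CD37 fl/fl replicate 2. *Idh3a* shared none of its 31-base stretches with another gene and overlapped none.

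*Idh1* makes the same reaction as *Idh2* in the cytosol and the peroxisome. The gene (ENSMUSG00000025950, chr1:65158616-65186500, minus strand) was at an FPKM of 2.90 and 3.58 in CD37 fl/fl (3.24 ± 0.486, SD, n = 2) and of 3.39 and 3.77 in CD37 -/- (3.58 ± 0.268, SD, n = 2). The groups overlapped, with a log2 fold change of 0.12 (95% interval -0.34 to 0.57, adjusted p = 0.717, limma).

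Within a library, the ratio of 2 genes does not depend on how the libraries were scaled, which makes the balance of the isocitrate dehydrogenases readable without a choice of normalization. The ratio of exon levels of *Idh3a* to *Idh2* was 0.111 and 0.186 in CD37 fl/fl against 0.349 and 0.485 in CD37 -/-. It was higher in both CD37 -/- libraries, by a log2 difference of 1.52 between the group means, where the SD of the log2 ratio was 0.53 in CD37 fl/fl and 0.34 in CD37 -/-. The ratio of *Idh1* to *Idh2* was 0.364 and 0.344 in CD37 fl/fl against 0.528 and 0.671 in CD37 -/-, a log2 difference of 0.75. In that pair the replicates of CD37 fl/fl differed little (SD 0.06 on the log2 scale) and those of CD37 -/- more (SD 0.25). *Idh3a* and *Idh2* had the highest and the lowest log2 fold change of the 9 (0.75 and -0.54), so that a wide difference in their ratio follows from the choice of pair. How many pairs among all genes lack overlap was not counted. With 2 libraries against 2, the smallest two-sided p that an exact permutation test can give is 0.333, and the ratios are given without a test.

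**Figure D3:**
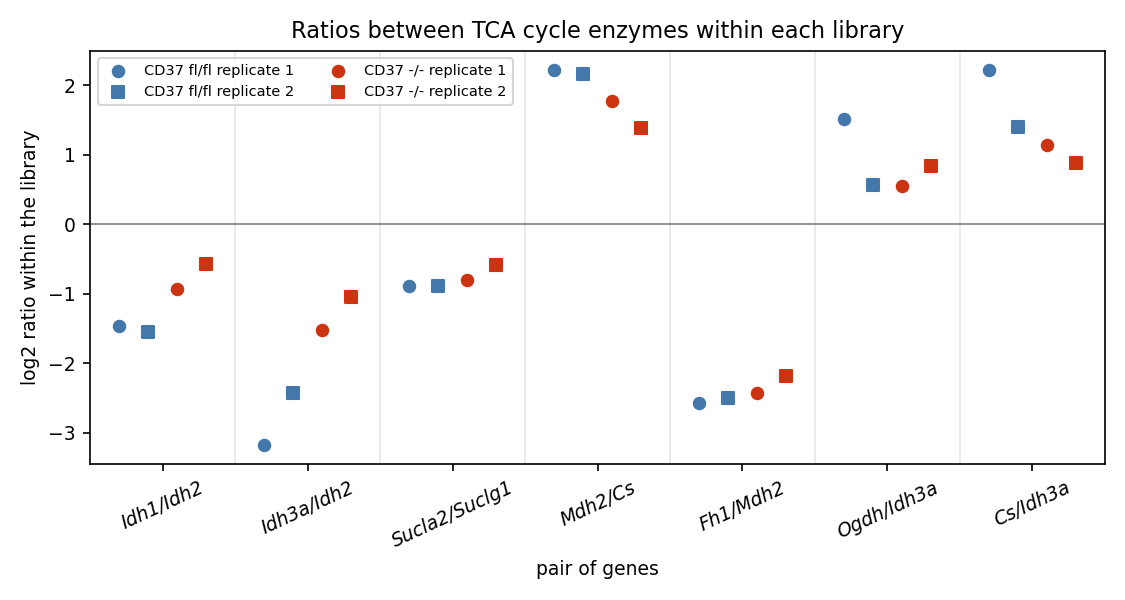
Log2 ratio of the exon levels of 7 pairs of TCA cycle genes in each library (blue, CD37 fl/fl, red, CD37 -/-; circles, replicate 1, squares, replicate 2; 0 is an equal level). The pairs reuse the same genes and are not independent. The widest difference between group means among them is that of *Idh3a* to *Idh2*, 1.52, which pairs the members with the highest and the lowest log2 fold change.

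*Ogdh* encodes the subunit of the 2-oxoglutarate dehydrogenase complex that decarboxylates 2-oxoglutarate. The gene (ENSMUSG00000020456, chr11:6291633-6356642, plus strand) was at an FPKM of 2.12 and 2.43 in CD37 fl/fl (2.28 ± 0.220, SD, n = 2) and of 2.77 and 4.11 in CD37 -/- (3.44 ± 0.951, SD, n = 2). Values were higher in both CD37 -/- libraries, and replicate 2 stood well above replicate 1. The log2 fold change of *Ogdh* was 0.42 (standard error 0.21, 95% interval -0.11 to 0.95, adjusted p = 0.273, limma), and 0.20 without CD37 -/- replicate 2. The ratio of exon levels of *Ogdh* to *Idh3a* was 2.85 and 1.49 in CD37 fl/fl against 1.46 and 1.79 in CD37 -/-, with overlapping groups.

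Succinyl-CoA synthetase conserves the energy of succinyl-CoA as a nucleoside triphosphate and pairs the common subunit of *Suclg1* with the ATP-forming subunit of *Sucla2* or the GTP-forming subunit of *Suclg2*. *Suclg1* (ENSMUSG00000052738, chr6:73248382-73276911, plus strand) was at an FPKM of 6.06 and 6.73 in CD37 fl/fl (6.40 ± 0.472, SD, n = 2) and of 5.82 and 4.77 in CD37 -/- (5.30 ± 0.740, SD, n = 2). Both CD37 -/- libraries were lower, the first of them by less than the gap between the CD37 fl/fl libraries. For *Suclg1*, the log2 fold change was -0.24 (95% interval -0.73 to 0.25, adjusted p = 0.480, limma) and turned to 0.10 when each library was rescaled to the same sum (TPM). It was -0.12 without CD37 -/- replicate 2 and -0.36 without CD37 -/- replicate 1. *Sucla2* (ENSMUSG00000022110, chr14:73525319-73596142, plus strand) was at 1.14 and 1.27 in CD37 fl/fl and at 1.16 and 1.10 in CD37 -/-. The groups overlapped, with a log2 fold change of -0.05 (95% interval -0.45 to 0.35, adjusted p = 0.875, limma), which was 0.25 under TPM. The ratio of exon levels of *Sucla2* to *Suclg1* was 0.541 and 0.542 in CD37 fl/fl against 0.575 and 0.664 in CD37 -/-.

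*Fh1*, fumarase, turns fumarate into malate in the mitochondrion and the cytosol. The gene (ENSMUSG00000026526, chr1:175600374-175625635, minus strand) was at an FPKM of 4.39 and 5.50 in CD37 fl/fl (4.94 ± 0.784, SD, n = 2) and of 4.28 and 3.94 in CD37 -/- (4.11 ± 0.242, SD, n = 2). Each CD37 -/- library lay below both CD37 fl/fl libraries, replicate 1 of CD37 -/- only just so. For *Fh1*, the log2 fold change was -0.21 (95% interval -0.69 to 0.27, adjusted p = 0.513, limma), and 0.12 under TPM. It was -0.35 without CD37 fl/fl replicate 1 and -0.077 without CD37 fl/fl replicate 2. Of its span, 20.8% overlaps *Kmo* on the opposite strand. The libraries keep the strand, but the sources used here do not say that the counting used it.

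*Mdh2* (ENSMUSG00000019179, chr5:135778480-135790398, plus strand) closes the cycle. Its FPKM was 58.1 and 68.9 in CD37 fl/fl (63.5 ± 7.65, SD, n = 2) and 51.1 and 39.8 in CD37 -/- (45.4 ± 7.99, SD, n = 2). The CD37 -/- mean was 71.5% of the CD37 fl/fl mean, with both libraries lower. The log2 fold change was -0.48 (standard error 0.27, 95% interval -1.15 to 0.19, adjusted p = 0.313, limma), and -0.30 without CD37 -/- replicate 2. Against *Cs* in the same library, whose product it helps to form by supplying oxaloacetate, *Mdh2* had a ratio of exon levels of 4.69 and 4.48 in CD37 fl/fl and of 3.41 and 2.63 in CD37 -/-. That ratio was lower in both CD37 -/- libraries, by a log2 difference of -0.61 (SD 0.05 in CD37 fl/fl and 0.27 in CD37 -/-). The ratio of *Fh1* to *Mdh2* was 0.168 and 0.178 in CD37 fl/fl against 0.187 and 0.220 in CD37 -/-, and that of *Cs* to *Idh3a* was 4.67 and 2.64 against 2.22 and 1.85.

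The direction of a single enzyme depended in part on how libraries were scaled. The median log2 fold change of all genes tested was 0.11 on the deposited scale, -0.02 after quantile normalization, 0.49 under TPM and -0.11 with limma-voom on recovered reads scaled to equal medians. Measured from these medians, *Idh2* was at -0.65, -0.62, -0.70 and -0.85, *Mdh2* at -0.59, -0.29, -0.60 and -0.74, and *Idh3a* at 0.64, 0.61, 0.75 and 0.65 in the same order. Relative to the median of all genes, *Idh2*, *Mdh2*, *Suclg1*, *Fh1* and *Sucla2* were lower and *Idh3a* and *Ogdh* higher under every alternative in which they were tested. *Cs* was above the median in 10 and *Idh1* in 9 of theirs. The alternatives reuse the same 4 libraries and are not independent. How many of all genes stay on the same side of the median was not counted. *Sucla2*, whose groups overlapped, lay only between -0.35 and -0.07 from it. With limma-voom on the recovered reads, where 25.3% of 13056 genes had an unadjusted p under 0.05, *Idh2* (adjusted p = 0.179) and *Idh3a* (adjusted p = 0.172) were the members among them. At an adjusted p under 0.05, limma-voom called none of the 9 and 0.0% of all genes.

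**Figure D4:**
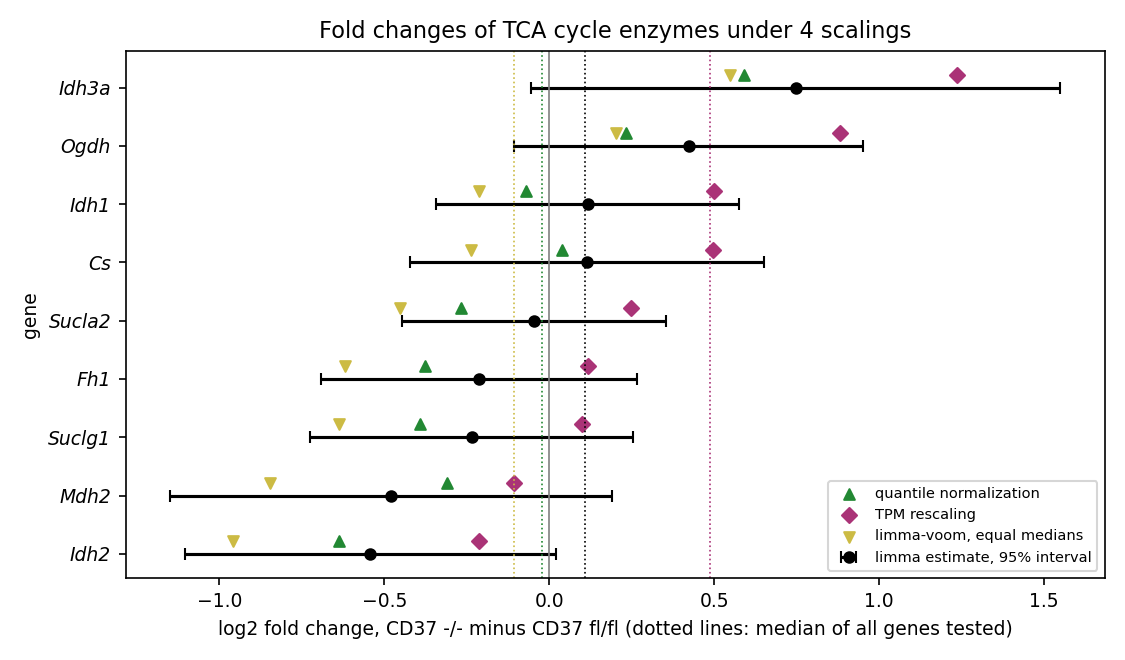
Log2 fold change (CD37 -/- minus CD37 fl/fl) of each enzyme from limma on log2(FPKM + 1) with its 95% interval (black), and the estimates after quantile normalization (green), TPM rescaling (purple) and limma-voom with equal medians (yellow); dotted lines are the median of all genes tested in each. All 9 black intervals include 0, and TPM rescaling moves *Sucla2*, *Fh1* and *Suclg1* from below 0 to above it.

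Libraries of the same group also differed in all members at once. In CD37 fl/fl, replicate 1 was lower than replicate 2 for all 9 genes, with a median log2 ratio to the group mean of -0.16 in replicate 1 and 0.15 in replicate 2. In CD37 -/-, replicate 2 was higher than replicate 1 for *Cs*, *Idh1*, *Idh3a* and *Ogdh* and lower for the other 5. Markers of other cells also differed between libraries. The 4 granulocyte markers in the table held 0.206% and 0.0297% of the reads in CD37 fl/fl against 0.387% and 0.204% in CD37 -/-, most of them from *Camp*. *Camp*, *Ly6g* and *Mmp8* overlapped between groups, and only *Ltf* was higher in both CD37 -/- libraries. None of the 4 passed an adjusted p under 0.05. The 7 erythroid markers held 0.00668% and 0.000580% of the reads in CD37 fl/fl against 0.0579% and 0.0166% in CD37 -/-, nearly all of them from globins, while *Gata1* was at 0 in CD37 fl/fl replicate 2 and at most at 20 reads elsewhere. The 5 monocyte and macrophage markers held 0.0856% and 0.0642% in CD37 fl/fl against 0.0834% and 0.101% in CD37 -/-. The 3 B cell markers held 0.00447% and 0.00531% against 0.00299% and 0.00237%, and the T and NK cell markers (2 genes) and stroma and endothelium markers (4 genes) at most 0.000129% each. The markers of the leukemic progenitors shared no direction. *Mpo* was at an FPKM of 80.3 and 51.6 in CD37 fl/fl and at 34.4 and 20.8 in CD37 -/-. *Kit* was at 0.170 and 0.325 in CD37 fl/fl and at 0.327 and 0.434 in CD37 -/-. *Meis1* was at 0.512 and 0.573 in CD37 fl/fl and at 0.884 and 0.851 in CD37 -/-. *Elane*, *Hoxa9* and *Cd34* overlapped between groups. The part of these differences in the values of the enzymes was not tested, and in bulk RNA a smaller share of cells and less RNA per cell cannot be told apart.

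Partner subunits of the members, and the separate enzyme gene *Mdh1*, were read beside them. The complete NAD-dependent isocitrate dehydrogenase needs *Idh3b* and *Idh3g* with *Idh3a*. *Idh3b* was at an FPKM of 16.1 and 20.98 in CD37 fl/fl and of 21.9 and 24.3 in CD37 -/- (log2 fold change 0.31, adjusted p = 0.453, limma). *Idh3g* was at 24.4 and 31.97 in CD37 fl/fl and at 25.8 and 22.5 in CD37 -/- (log2 fold change -0.21, adjusted p = 0.631, limma). By exon level, *Idh3g* lay between 66.2 and 94.3 and *Idh3b* between 24.9 and 37.3, so that *Idh3a*, at 8.99 to 27.5, was the lowest of the 3 subunit genes in every library. *Dlst*, the succinyl transferase that works with OGDH, was at 8.00 and 7.46 in CD37 fl/fl and at 9.69 and 9.89 in CD37 -/- (log2 fold change 0.31, adjusted p = 0.363, limma). *Dld*, of the same complex, overlapped between groups, at 4.87 and 6.78 in CD37 fl/fl and at 6.65 and 7.20 in CD37 -/- (log2 fold change 0.23, adjusted p = 0.535, limma). *Suclg2* lay under the filter and also overlapped, with 420 and 806 reads in CD37 fl/fl against 630 and 970 in CD37 -/-. *Mdh1*, the cytosolic malate dehydrogenase, was at 13.2 and 14.3 in CD37 fl/fl and at 12.2 and 10.6 in CD37 -/-, lower in both CD37 -/- libraries as *Mdh2* was (log2 fold change -0.26, adjusted p = 0.476, limma).

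Of the 12 other TCA enzymes and subunits, 9 passed the filter, 6 with a log2 fold change above 0 and 3 below, and none had an unadjusted p under 0.05. *Sdhd*, a membrane anchor of succinate dehydrogenase, was at an FPKM of 20.3 and 30.1 in CD37 fl/fl and of 26.8 and 24.5 in CD37 -/-.

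Pyruvate enters the cycle through the mitochondrial pyruvate carrier and the pyruvate dehydrogenase complex, which pyruvate dehydrogenase kinases switch off. Of the 11 genes of this list in the table, 6 were tested, 4 above and 2 below 0, none at an unadjusted p under 0.05. *Pdhb* and *Pdha1* encode the subunits of its first enzyme. *Pdhb* was at an FPKM of 9.55 and 16.6 in CD37 fl/fl and of 20.01 and 19.5 in CD37 -/- (log2 fold change 0.61, adjusted p = 0.269, limma). *Pdha1* was at 2.38 and 3.56 in CD37 fl/fl and at 4.17 and 4.64 in CD37 -/- (log2 fold change 0.46, adjusted p = 0.247, limma). As for *Idh3a*, both CD37 -/- libraries were higher and CD37 fl/fl replicate 1 was the lowest. *Mpc1*, a subunit of the carrier, lay under the filter with 34 and 44 reads in CD37 fl/fl against 267 and 224 in CD37 -/-. In the fit of all 16973 genes above 0, where 17.2% had an unadjusted p under 0.05 and 0.0% an adjusted one, *Mpc1* had an adjusted p of 0.260 (limma), and 29.1% of its span overlaps a transcript of the opposite strand.

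The remaining lists cover reactions that feed, drain or maintain the cycle. Of 9 refilling genes in the table, 5 were tested, 3 above and 2 below 0, and 1 had an unadjusted p under 0.05. This was *Pck2*, mitochondrial phosphoenolpyruvate carboxykinase, which draws oxaloacetate out of the cycle, at an FPKM of 21.7 and 38.9 in CD37 fl/fl and of 17.6 and 14.1 in CD37 -/- (log2 fold change -0.84, adjusted p = 0.203, limma). *Glud1*, glutamate dehydrogenase, was at 5.60 and 6.56 in CD37 fl/fl and at 5.99 and 7.58 in CD37 -/-. Of 11 genes of carriers and acetyl-CoA export, 6 were tested, 3 on either side of 0, with 1 at an unadjusted p under 0.05. *Slc25a12*, the aspartate and glutamate carrier of the malate-aspartate shuttle, was at 1.34 and 1.41 in CD37 fl/fl and at 2.41 and 2.50 in CD37 -/- (log2 fold change 0.54, adjusted p = 0.143, limma). Its partner in the shuttle, the 2-oxoglutarate carrier *Slc25a11*, was at 51.5 and 51.5 in CD37 fl/fl and at 42.6 and 40.9 in CD37 -/- (log2 fold change -0.30, adjusted p = 0.460, limma). The citrate carrier *Slc25a1* overlapped between groups, at 41.3 and 51.1 against 41.9 and 35.5.

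Of 8 genes for lipoylation, which arms the 2-oxoglutarate and pyruvate dehydrogenase complexes, and for clearance of 2-hydroxyglutarate, 5 were tested, 1 above and 4 below 0, with none at an unadjusted p under 0.05. The iron-sulfur scaffold *Iscu* was at an FPKM of 15.8 and 13.0 in CD37 fl/fl and of 15.3 and 12.9 in CD37 -/-. *Nfu1*, which hands on iron-sulfur clusters, was at 7.45 and 8.16 against 7.55 and 6.14. Among 13 regulators of mitochondrial gene expression in the table, 8 were tested, 7 above and 1 below 0, and 3 had an unadjusted p under 0.05. *Polg*, the catalytic subunit of the mitochondrial DNA polymerase, was at 1.66 and 1.42 in CD37 fl/fl and at 3.82 and 5.26 in CD37 -/- (log2 fold change 1.11, adjusted p = 0.0795, limma), and 20.0% of its span overlaps *Fanci* on the opposite strand. *Gabpa*, a DNA-binding ETS factor known from promoters of mitochondrial genes, was at 0.809 and 1.15 in CD37 fl/fl and at 1.83 and 2.47 in CD37 -/- (log2 fold change 0.67, adjusted p = 0.141, limma). *Yy1*, a zinc finger factor, was at 3.25 and 4.12 in CD37 fl/fl and at 5.65 and 6.15 in CD37 -/- (log2 fold change 0.57, adjusted p = 0.165, limma). Over the 6 lists, 39 of 64 genes in the table were tested, of which 24 were above 0 and 15 below, 4 and 1 of them with an unadjusted p under 0.05, and none with an adjusted p under 0.05. Over all genes tested, 24.0% had an unadjusted p under 0.05.

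**Figure D5:**
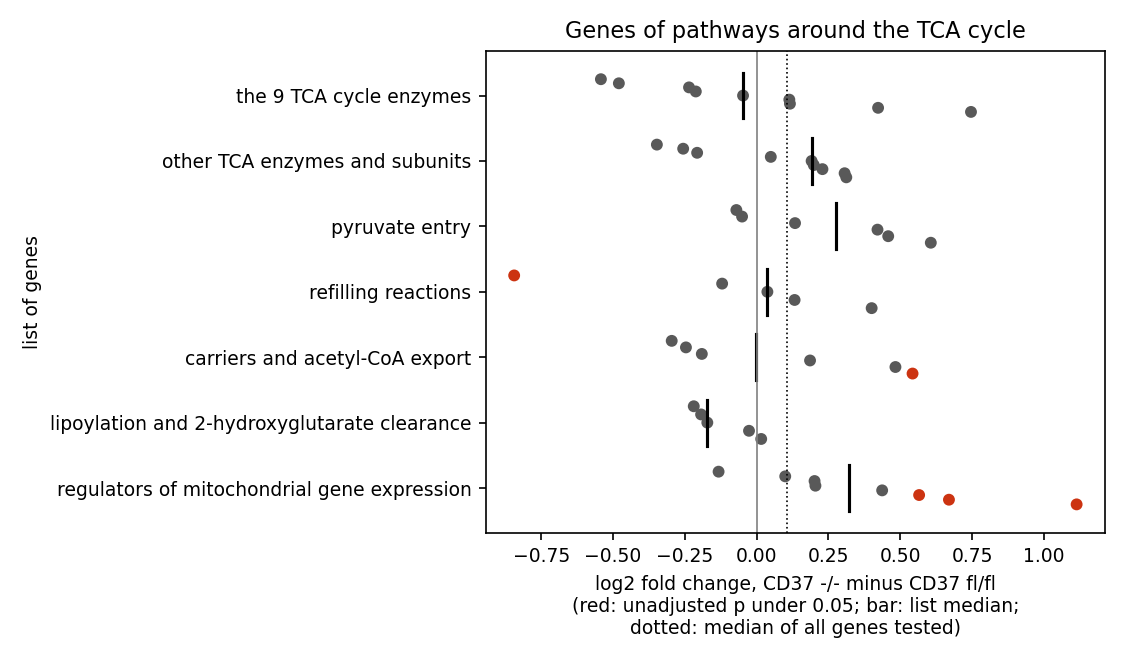
Log2 fold change (CD37 -/- minus CD37 fl/fl) of each tested gene in the 9 TCA cycle enzymes and in 6 lists around the cycle (points; red, unadjusted p under 0.05; bars, list median; dotted line, median of all genes tested, 0.11). *Pck2* at -0.84 and *Polg* at 1.11 are the outermost points, and no point has an adjusted p under 0.05.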

How the data were processed

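RNA of 4 sorted LSC libraries (2 CD37 fl/fl, 2 CD37 -/-) was sequenced after poly(A) selection, with strand marking by dUTP. The authors deposited FPKM values, on a linear scale with each library in its own column. The submitters' processing notes list fastp 0.20.1, STAR 2.7.7a, featureCounts 2.0.0, edgeR and the build mm39, with no role for each. The annotation is not given in the sources used here.

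Gene names and positions came from GENCODE M21 (GRCm38), which matched 17045 of 17104 identifiers (99.7%). With its gene spans, between 98.9% and 99.0% of values of up to 1000 reads corresponded to whole reads (tolerance 0.05, met by 10.0% of values by chance), although the notes list mm39, so positions are those of GRCm38. Values above 1000 reads were rounded with the same step. These recovered reads gave depth, exon levels and the limma-voom fits. The authors state no library totals.

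Tests used log2(FPKM + 1), on which changes of low genes appear too small. Genes whose FPKM averaged 1 or more were tested with limma 3.58.1 (R 4.3.3; lmFit, eBayes with a trend), Benjamini-Hochberg adjustment and a threshold of 0.05, without a replicate block. No pairing of the samples by replicate number is stated. The correlation of the replicate differences of the 2 groups was -0.04, which cannot settle whether samples were paired. The code was tested on simulated data. Alternatives were a pseudocount of 0.1, other filters, scalings and variance models, the block, each library left out, exon length, and limma-voom on recovered reads (mean of at least 10).

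The 9 members and all lists were chosen with earlier results of these data known. In each list the genes named were up to 4 with an unadjusted p under 0.05 and no overlap, or else also the 2 with the highest mean FPKM. *Idh3b*, *Dlst*, *Dld*, *Suclg2*, *Mdh1* and *Mpc1* were added after their values were seen. Shared sequence was counted in stretches of 31 bases. The list genes *Pdk4*, *Pc*, *Me3*, *Pck1*, *Lipt1* and *Ppargc1a* and the markers *Itgam*, *Alas2*, *Ms4a1*, *Cd3e*, *Cd8a* and *Ncr1* were not analysed here. Promoter sequences are from RefSeq (GRCm38.p6). Python 3.11.15, pandas 2.3.3 and matplotlib 3.10.9 were used.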

Additional observations from a re-analysis of the deposited data

How the results depend on the processing

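None of the 9 enzymes had an adjusted p under 0.05 under any of the alternatives run. Over all genes, that threshold was passed by 45 genes when the mean FPKM had to reach 5, 88 with robust eBayes and 73 with the replicate block, and by 0 under each other setting, and 1626 genes had an unadjusted p under 0.05. At an unadjusted p under 0.05 there were 4 members with limma-voom at equal medians (*Idh2*, *Mdh2*, *Fh1* and *Suclg1*; 24.3% of all genes), 2 with TPM (*Idh3a* and *Ogdh*; 33.4%), 2 with limma-voom (*Idh2* and *Idh3a*; 25.3%), 1 (*Idh2*) each with quantile normalization (21.5%), the upper quartile (24.1%), exon length (25.1%) and eBayes without a trend (24.0%), and 1 (*Idh3a*) with the replicate block (23.3%). Leaving out 1 library gave 0 to 1 such members, which was *Idh2* without CD37 fl/fl replicate 1 (16.6% of all genes) and *Idh3a* without CD37 fl/fl replicate 2 (20.3%). The median of the members, -0.05, was -0.24 over the 5 members that reach a mean FPKM of 5, -0.27 after quantile normalization, 0.25 under TPM and -0.45 with limma-voom at equal medians. The sign turned in 8 of 140 values of single members. *Idh1* was at -0.070 after quantile normalization, *Cs* at -0.24 and *Idh1* at -0.21 with limma-voom at equal medians, and under TPM *Fh1* was at 0.12, *Sucla2* at 0.25 and *Suclg1* at 0.10. With 1 library left out, *Cs* ranged from -0.029 to 0.26 and *Idh1* from -0.0015 to 0.23, the lowest in each case without CD37 fl/fl replicate 1 and the highest without CD37 fl/fl replicate 2. The cause was not tested. Since no pairing of the samples by replicate number is stated, the block is an alternative only. With 2 libraries a group, the interval of the most variable member, *Idh3a*, ran from -0.06 to 1.55.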
